A study of Saccharomyces cerevisiae with 30 samples.

Results

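The autophagy genes of the expression table were taken as the features whose listed name is ATG followed by digits, a rule that uses no measured value. It found 25 genes of 6932 listed features, and all 25 had at least 5 RPKM (reads scaled to gene length and library size) in 1 medium. They were measured in Saccharomyces cerevisiae of the strain Σ1278b, which grows as filaments when nitrogen is scarce, by polyA RNA-seq of 1 culture in nitrogen-starved medium and 1 in rich medium. They were also measured in 28 calling card libraries, 1 for each transcription factor. In that method a factor fused to Sir4 draws the Ty5 retrotransposon to the DNA it occupies, and the insertions are read out by sequencing; per the labels, the cells grew on synthetic medium low in ammonium and were induced in 2% galactose. The RNA samples carry the same growth and induction text in the labels, so it is unclear how far it applies to them. The factors were Flo8, Mss11, Mfg1, Sok2, Ste12, Tec1, Mit1, Nrg1, Sfl1, Phd1, Mga1, Rim101, Rlm1, Rtg1, Skn7, Smp1, Fkh1, Dig1, Gln3, Hms1, Msn1, Hot1, Hms2, Yap6, Msn2, Msn4, Gcn4 and Rgm1. No group had a second library, and a library with no fused factor was not analysed here.

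Autophagy encloses part of the cytoplasm in a double membrane, the autophagosome, and delivers it to the vacuole, where it is broken down and its building blocks are returned. In yeast, nitrogen starvation is the standard way to start it: the kinase complex TORC1 falls silent, the Atg1 kinase complex becomes active, a lipid kinase complex and vesicles carrying Atg9 form the first membrane, and conjugation of Atg8 and Atg12 lets it grow. In rich medium several of the same proteins serve the Cvt pathway, which carries the precursor of aminopeptidase I (the product of LAP4) to the vacuole.

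The starved library differed from the rich library by 2-fold or more for only 1 of the 25 ATG genes. ATG8, which encodes the ubiquitin-like protein that is joined to lipid on the growing membrane, was higher in starved medium, and 0 ATG genes were lower by that much. Over the 6122 features with at least 5 RPKM in 1 medium, 10.8% were higher by 2-fold or more and 4.05% were lower by 2-fold or more. Changes are given as log2 of the ratio of RPKM, starved over rich, with 1 RPKM added to each value. With 1 library a medium there was no test, and the medium and the library cannot be told apart. In such bulk samples, fewer cells of a type and less RNA per cell cannot be told apart either.

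Smaller differences lay more often on the starved side. Of the 25 ATG genes, 19 were higher in starved medium to any extent and 6 were lower, and their median change was 0.23, with a range of -0.53 to 1.08. Over all 6122 features the median change was 0.01, with 3120 higher and 3002 lower. The change was within 0.5 on the log2 scale in either direction for 20 of the 25 ATG genes and for 3923 of the 6122 features. The genes also had low levels: their median was 17.4 RPKM in starved medium and 14.7 RPKM in rich medium, against 43.4 RPKM and 40.1 RPKM over all 6932 listed features in the same media. In each medium 22 of the 25 lay below the median of the 6932. The levels of ATG16 and ATG29 are uncertain, since their listed coordinates overlap those of a neighbouring gene.

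**Figure D1:**
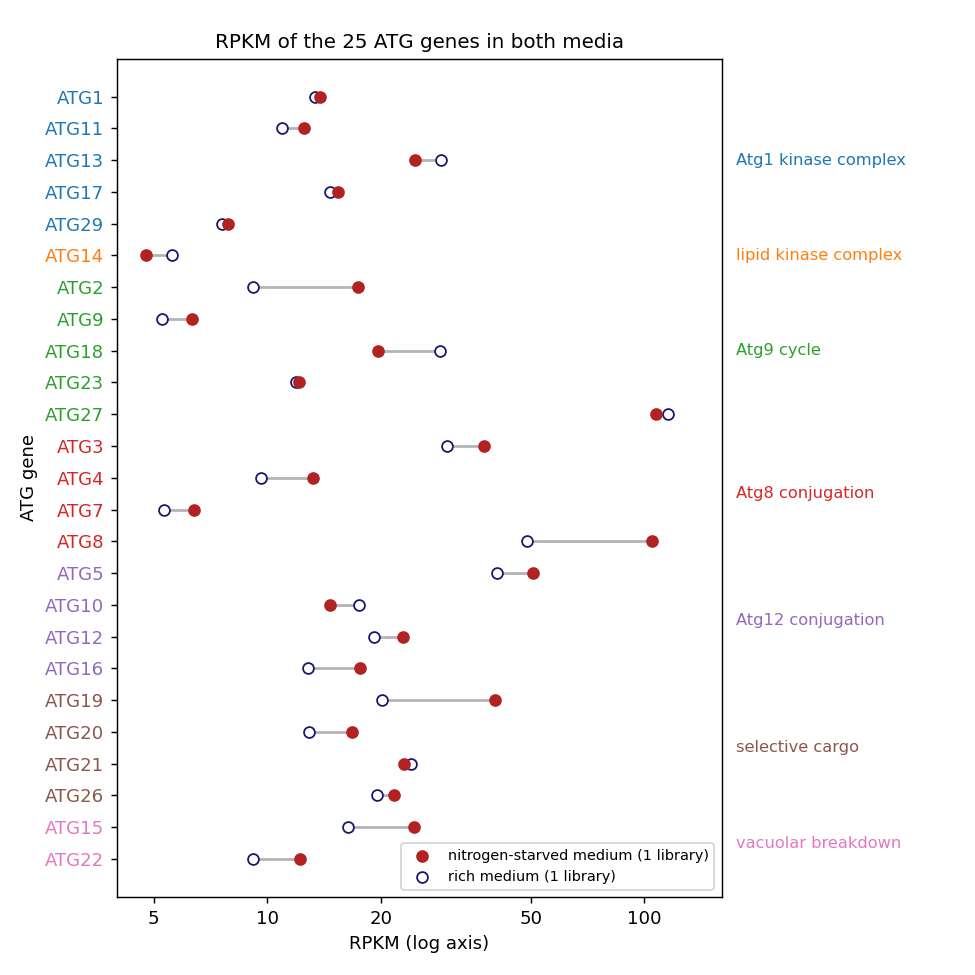
RPKM (log axis) of the 25 ATG genes in nitrogen-starved medium (filled) and rich medium (open), 1 library each, grouped and coloured by role; grey lines join both values of a gene. ATG8 has the widest gap, at 105 RPKM in starved medium and 48.9 RPKM in rich medium, and most other genes lie close together in both media.

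The Atg1 kinase complex, which starts autophagy, differed little between media, with a median change of 0.04 over its 5 listed genes. ATG1, encoding the kinase itself, had 13.8 RPKM in starved medium and 13.4 RPKM in rich medium. ATG13, encoding the regulatory subunit that TORC1 phosphorylates, had 24.6 RPKM in starved medium and 28.8 RPKM in rich medium. The scaffold genes were as close: ATG17 had 15.4 RPKM starved and 14.7 RPKM rich, and ATG29 had 7.86 RPKM starved and 7.59 RPKM rich. ATG11, whose product is the scaffold of selective autophagy, had 12.5 RPKM in starved medium and 10.9 RPKM in rich medium. ATG14, the 1 listed ATG gene of the lipid kinase complex, encodes the subunit that directs the Vps34 kinase to autophagy; it had 4.78 RPKM in starved medium and 5.59 RPKM in rich medium, the lowest starved value of the 25.

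The genes of the Atg9 cycle went different ways. ATG2 encodes a lipid transfer protein that feeds the growing membrane and had 17.4 RPKM in starved medium against 9.19 RPKM in rich medium, a change of 0.85. ATG18 encodes the phosphoinositide-binding partner of Atg2 and had the lowest change of all 25, -0.53, with 19.6 RPKM in starved medium and 28.8 RPKM in rich medium. ATG9, encoding the membrane protein of the vesicles, stood at 6.33 RPKM starved and 5.27 RPKM rich. Of the genes whose products help Atg9 travel, ATG23 had 12.1 RPKM starved and 11.9 RPKM rich. ATG27 had the highest RPKM of the 25 genes in both media, with 107 RPKM starved and 116 RPKM rich. The partners Atg2 and Atg18 thus had changes of opposite sign in these libraries, and the median over the 5 genes was 0.02.

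All 4 genes of Atg8 conjugation were higher in the starved library, with a median change of 0.37. ATG8 (YBL078C, chromosome 2, 64577 to 64930, minus strand, in the coordinates of the deposited expression table) had 105 RPKM in starved medium and 48.9 RPKM in rich medium, a 2.14-fold difference and a change of 1.08, and had the rank 582 of 6122 features, counted from the largest change. The 3 enzymes that act on Atg8 moved less. ATG4, the protease that trims Atg8 and frees it from lipid again, had 13.2 RPKM starved and 9.63 RPKM rich. ATG3, the conjugating enzyme, had 37.7 RPKM starved and 29.9 RPKM rich, and ATG7, the activating enzyme that Atg8 shares with Atg12, had 6.40 RPKM starved and 5.32 RPKM rich.

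In the Atg12 branch, whose conjugate helps to place Atg8 on the membrane, the median change was 0.28. ATG5, the acceptor of Atg12, was among the 3 ATG genes of highest RPKM in both media, with 50.5 RPKM starved and 40.7 RPKM rich. ATG12 had 22.9 RPKM starved and 19.2 RPKM rich, ATG16, whose product holds the conjugate together, had 17.6 RPKM starved and 12.8 RPKM rich, and ATG10, the conjugating enzyme, had 14.7 RPKM starved and 17.5 RPKM rich.

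ATG19 had the next largest change after ATG8 and lay just under 2-fold. It encodes the receptor that carries aminopeptidase I into the Cvt pathway, and had 40.1 RPKM in starved medium against 20.2 RPKM in rich medium, 1.99-fold, a change of 0.96. ATG20, a sorting nexin gene, had 16.8 RPKM starved and 12.9 RPKM rich. ATG21, encoding a phosphoinositide-binding protein, had 23.0 RPKM starved and 24.1 RPKM rich, and ATG26, a sterol glucosyltransferase gene, had 21.7 RPKM starved and 19.5 RPKM rich. Both genes of the last step were higher in starved medium: ATG15, the lipase that opens the delivered vesicles, had 24.5 RPKM starved and 16.3 RPKM rich, and ATG22, an amino acid exporter of the vacuole, had 12.2 RPKM starved and 9.16 RPKM rich.

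The rule passes over genes that now carry an ATG name but stand in the table under another. RefSeq names 14 such genes, and all 14 were higher in the starved library, 5 of them by 2-fold or more, with a median change of 0.58. Over all 6122 features, 3120 were higher to any extent and 10.8% by 2-fold or more. Many encode cargo receptors, the proteins that tie a given organelle or enzyme to Atg8. YLR312C (ATG39), a receptor for the nuclear envelope, had 10.7 RPKM in starved medium and 0.632 RPKM in rich medium, 16.9-fold. YLR356W (ATG33), a mitochondrial outer membrane protein needed for mitophagy, had 87.2 RPKM starved and 30.3 RPKM rich, and YOL083W (ATG34), a receptor for alpha-mannosidase, had 8.40 RPKM starved and 2.24 RPKM rich, in coordinates that overlap a neighbour. YIL024C (ATG45) had 54.1 RPKM starved and 20.1 RPKM rich, and YBR139W (ATG42), a vacuolar carboxypeptidase, had 59.9 RPKM starved and 26.3 RPKM rich. Those 5 passed 2-fold. Partners of core subunits had smaller differences: CIS1 (ATG31, which binds Atg29) had 26.3 RPKM starved and 16.5 RPKM rich, and VPS30 (ATG6, a subunit of the lipid kinase complex) had 16.8 RPKM starved and 15.2 RPKM rich. Whether the 14 genes differ from the 25 was not tested.

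Other genes of the pathway were read from 5 lists of 53 genes, of which the table lists 52. At the end of the pathway, 4 of 8 genes of vacuolar proteases and cargo were higher by 2-fold or more, beside 10.8% of all features, and the list's median was 1.06. PRB1, the vacuolar proteinase B gene, had 459 RPKM in starved medium and 114 RPKM in rich medium. AMS1, the alpha-mannosidase carried by the Cvt pathway, had 15.6 RPKM starved and 5.18 RPKM rich, LAP4, the main Cvt cargo, had 70.7 RPKM starved and 26.4 RPKM rich, and CPS1, a carboxypeptidase gene, had 153 RPKM starved and 67.6 RPKM rich. LAP4 and the gene of its receptor, ATG19, were thus both higher in the starved library. Of 12 genes of transcriptional regulators 3 were higher by 2-fold or more, beside the same 10.8%: MSN4, a stress factor, with 74.5 RPKM starved and 13.6 RPKM rich, and the GATA factors GAT1 (396 RPKM starved, 28.8 RPKM rich) and DAL80 (26.7 RPKM starved, 0.247 RPKM rich). GAT1 and DAL80 are textbook targets of nitrogen limitation and are both high in the library labelled starved, but the coordinates of both overlap a neighbour. In the lists of TORC1 and nutrient kinases (16 genes, median 0.02), lipid kinase partners (4 genes, median 0.06) and vacuole fusion (12 listed genes, median -0.19) 0 genes passed 2-fold, and in no list was a gene lower by that much.

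For binding, insertions were counted in the 1200 bp before each start codon. The 28 libraries list 401017 insertions, between 2836 in the Rtg1 library and 41619 in the Phd1 library, with a median of 12128.5. Depth therefore sets what 0 can mean: 0 insertions before a gene allow up to 1.06 per 1000 insertions in the Rtg1 library and up to 0.0721 in the Phd1 library, counting 3 insertions as the limit. All intervals and limits cover counting error only.

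The windows of the 25 ATG genes held 915 insertions, 0.228% of the total, at 776 positions, and no pair of these windows overlapped. The median was 30 insertions a gene, summed over 28 libraries, and the same median was found over all 6444 genes with a window. It was 27 over the 5719 genes that the authors' deposited table calls for no factor. The middle of the ATG range ran from 16 to 44 insertions, against 17 to 58 over all genes. Of 700 pairs of an ATG gene and a library, 319 (45.6%) had 0 insertions, close to the 45.8% over all genes, 178 had 1, and 45 had 5 or more.

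ATG19, ATG1 and ATG11 had the most insertions. ATG19 had 109 (exact Poisson interval at 95%, 89.5 to 131), from 26 of 28 libraries, all in intergenic DNA, since the next listed gene is 1774 bp away. ATG1 had 96 (77.8 to 117), from 22 libraries, 88 of them in intergenic DNA. ATG11 had 85 (67.9 to 105), but 64 of the 85 lay beyond the 279 bp of intergenic DNA that separate it from the next listed gene, MAK3. ATG10, with 7 insertions (2.81 to 14.4), ATG9, with 10 (4.80 to 18.4), and ATG21, with 13 (6.92 to 22.2), had the fewest, and none of these intervals reaches those of the 3 highest genes.

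The other genes lay between these ends. In the Atg1 complex, ATG13 had 26, ATG17 16 and ATG29 15 insertions, and ATG14 of the lipid kinase complex had 24. In the Atg9 cycle, ATG23 had 56, ATG27 44, ATG2 31 and ATG18 30 insertions. In the conjugation branches, ATG5 had 44, ATG3 39, ATG4 30, ATG7 29, ATG8 16, ATG12 16 and ATG16 14 insertions. Of the remaining genes, ATG15 had 57, ATG22 48, ATG26 34 and ATG20 26 insertions. ATG8, the gene with the largest change in RPKM, was thus among the genes with few insertions: 20 of 28 libraries had 0 in its window (chromosome 2, 64931 to 66130), and no library had more than 3. However, only 165 bp of the ATG8 window are intergenic DNA. That stretch had 48.5 insertions per kilobase, against 58.3 per kilobase of intergenic DNA over the ATG windows together.

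**Figure D2:**
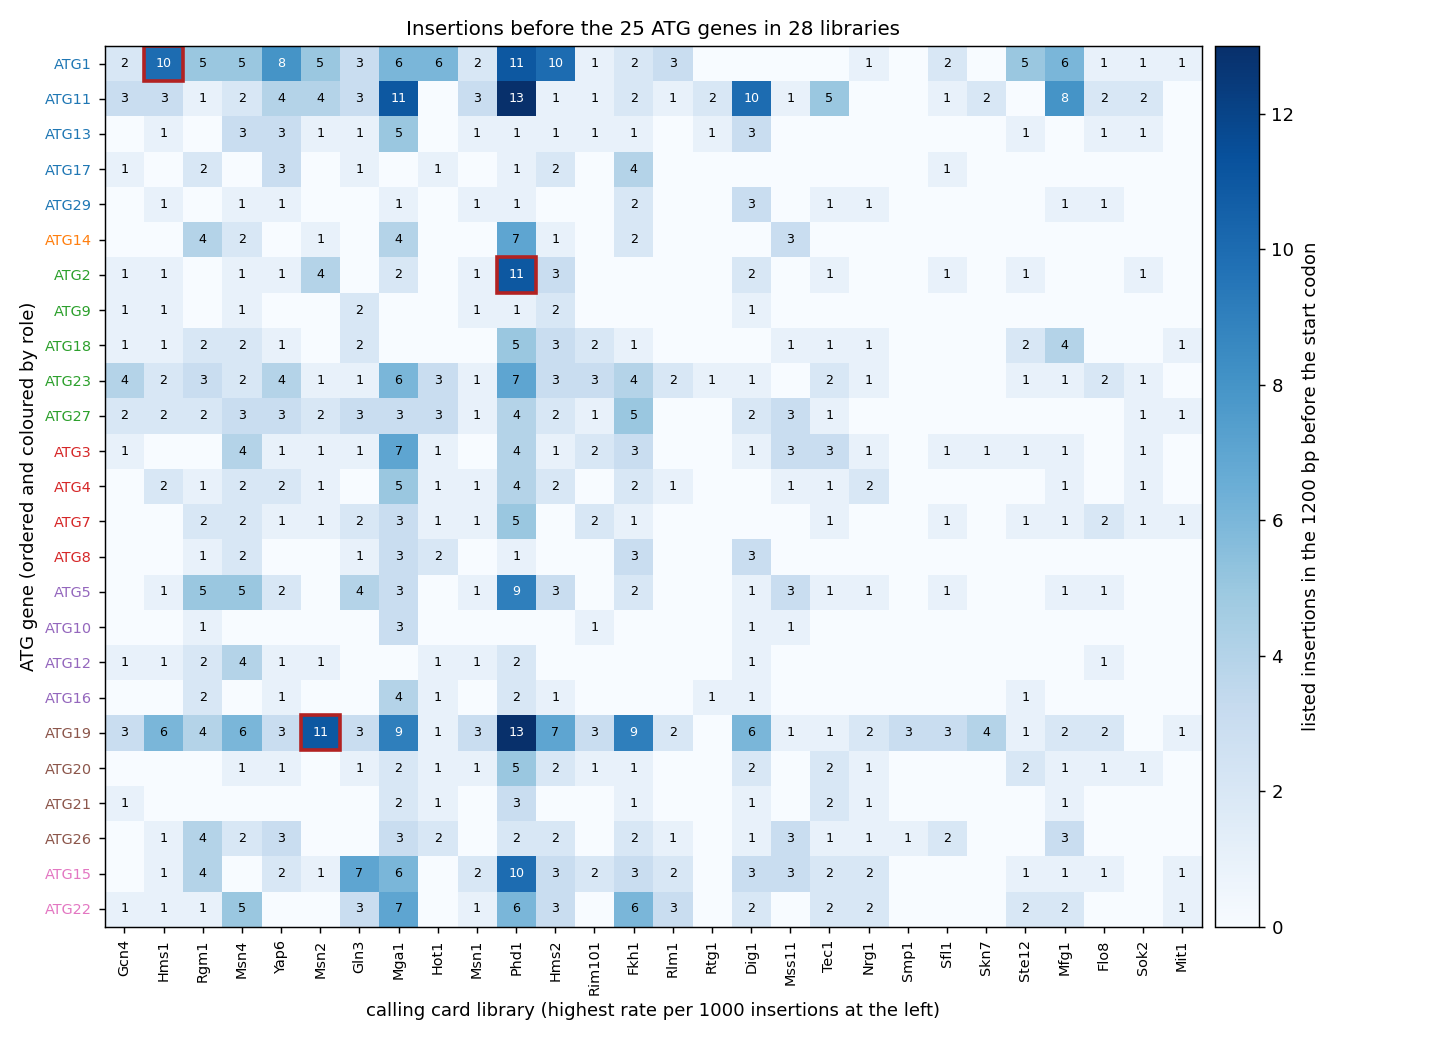
Listed insertions in the 1200 bp before the start codon for each of the 25 ATG genes (rows, ordered and coloured by role) in each of the 28 libraries (columns, highest share of insertions before ATG genes at the left); empty cells are 0. Red frames mark ATG1 in the Hms1 library (10), ATG2 in the Phd1 library (11) and ATG19 in the Msn2 library (11), the 3 pairs past the test.

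Few pairs stood out. Each library was set against the 27 others by a one-sided Fisher's exact test per gene, with Benjamini-Hochberg adjustment over 180432 pairs of all genes and factors. Of the 700 ATG pairs, 3 (0.429%) had an adjusted p at or under 0.05, beside 0.996% of all pairs. At an unadjusted p at or under 0.05 there were 42 (6%), beside 6.69% of all pairs. The authors' deposited p-values were at or under 0.001 for 2 of the 700 (0.286%), beside 0.879% of the whole deposited table, and 2 of the 25 genes (8%) had such a call, beside 11.3% of all its genes. At 0.01 the deposited table gave 4 ATG pairs (0.571%), beside 1.37%. These tests compare single libraries, not replicated factors.

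ATG1 stood out in the Hms1 library. Hms1 is a helix-loop-helix protein tied to filamentous growth. Its library had 10 insertions (4.80 to 18.4) in the ATG1 window (chromosome 7, 157216 to 158415, before YGL180W on the plus strand), a rate of 1.56 per 1000 insertions. The 27 other libraries had rates between 0 and 0.774 (the Hot1 library), with a median of 0.196, and 6 of them had 0 insertions. The Hms1 library was above every other one, and the odds ratio was 7.19 (Fisher's exact test, adjusted p = 0.000731). The authors' deposited p for the pair was 0.00015, which became 0.138 when adjusted over the genes of that factor. In number of insertions the Hms2 library matched it with 10, and the Phd1 library had 11, but these are larger libraries. All 10 insertions lay in intergenic DNA, 464 to 785 bp before the start codon. They had few reads (the number listed with each insertion, taken as its reads), a median of 1.5 against 16 over that library, and 5 of the 10 rested on 1 read. Lines at 688, 689 and 690 bp held 1, 30 and 1 reads, and lines at 742 and 743 bp held 1 and 25. The Fisher test counted each line, and whether neighbouring lines are separate insertions was not tested. At 3 of the 10 positions another library (Hms2, Hot1 or Phd1) held at least 10 times more reads. Without positions of that kind the adjusted p was 0.076, and with lines of at least 2 reads it was 0.408.

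ATG2 stood out in the Phd1 library, whose factor promotes filamentous growth. That library had 11 insertions (5.49 to 19.7) in the window (chromosome 14, 185267 to 186466, before YNL242W on the plus strand), 0.264 per 1000. The 27 other libraries together had 20 insertions, with rates between 0 and 0.422 and a median of 0, since 14 had none. The highest rate was that of the Msn2 library, from 4 insertions, so the Phd1 library was second. The odds ratio against the others was 4.75 (adjusted p = 0.0225, Fisher's exact test). The authors' deposited p was 2.15e-05, or 0.00227 adjusted within that factor. The insertions lay close to the gene, 3 to 412 bp before the start codon, 10 of 11 in intergenic DNA, at 11 positions of which 1 was shared with another library, where it had at least 10 times more reads. Neighbouring lines at 3 and 4 bp held 111 reads and 1 read and were counted separately. The adjusted p was above 0.05 under several other ways of counting, between 0.0578 and 0.186.

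ATG19 stood out in the library of Msn2, an activator of the general stress response. It had 11 insertions (5.49 to 19.7) at 9 positions in the window (chromosome 15, 166134 to 167333, before YOL082W on the plus strand), a rate of 1.16 per 1000. The 27 other libraries had rates between 0 and 0.998 (the Smp1 library, from 3 insertions), with a median of 0.288. The odds ratio was 4.64 (Fisher's exact test, adjusted p = 0.00916). The authors' deposited p was 0.00102, just above the threshold of 0.001. These insertions were well read, with a median of 90 reads against 15 over the library and up to 1297, and at 0 of their positions did another library have 10 times more reads. Lines at 99, 101 and 103 bp held 2, 393 and 10 reads. The positions at 215 bp (1 and 1297 reads) and 654 bp (1 and 1085 reads) were each listed more than once. Counting each position once left 9 insertions and an adjusted p of 0.137, by the same exact test, and with a 400 bp window it was 0.0679. With library sizes taken outside called windows the adjusted p of that test was 0.063. The library of Msn4, the paralogue of Msn2, had 6 insertions before ATG19, 0.418 per 1000. Its odds ratio was 1.57 (Fisher's exact test, unadjusted p = 0.196), so it did not stand out.

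**Figure D3:**
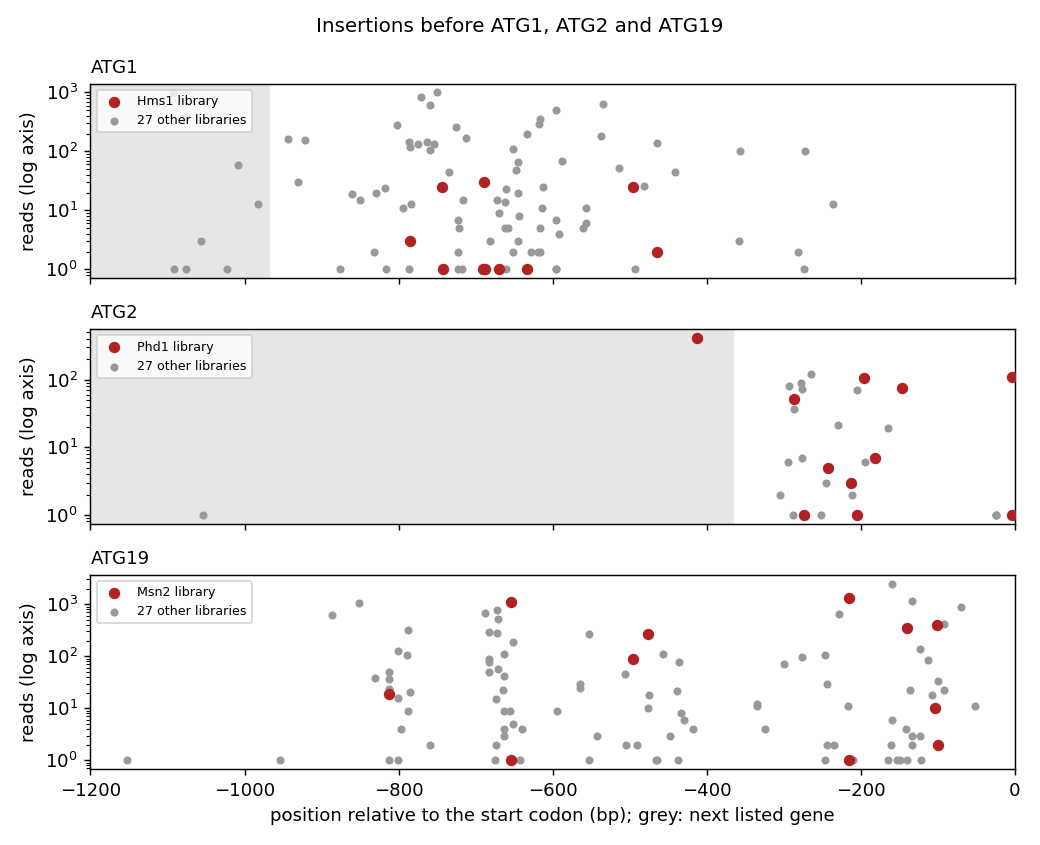
Reads per insertion (log axis) against position relative to the start codon (bp) for ATG1, ATG2 and ATG19; red, the library named in each panel; grey points, the 27 other libraries; grey band, the next listed gene. The 10 Hms1 insertions lie 464 to 785 bp before ATG1 with few reads, the 11 Phd1 insertions within 412 bp of ATG2, and the 11 Msn2 insertions before ATG19 reach 1297 reads.

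Close behind were pairs that missed the threshold. ATG15 had 7 insertions in the library of Gln3, the GATA activator of nitrogen-repressed genes (adjusted p = 0.0692, Fisher's exact test). ATG14 had 4 insertions in the Rgm1 library (adjusted p = 0.113, same exact test), none of them in intergenic DNA. ATG3 had 7 in the Mga1 library, with an adjusted p of 0.412, and its p in the authors' deposited table was 0.00256.

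Libraries differed in how much of their total fell before ATG genes. Per 1000 listed insertions the Gcn4 library had 5.70 (3.57 to 8.64), the Hms1 library 5.47 (3.81 to 7.61) and the Rgm1 library 5.32 (3.90 to 7.10), while the Mit1 library had 0.491 (0.197 to 1.01). Libraries with many insertions at their called targets have fewer left elsewhere, so rates were also taken over insertions outside the windows of genes called for any factor, and set beside the mean of the uncalled genes, scaled to 25 genes. On that scale the mean of the uncalled genes lay inside the interval of the ATG genes in 22 of 28 libraries. The ATG genes were above it in the Gcn4 library, with 8.99 (5.63 to 13.6) against 4.97, and in the Rgm1 library, with 6.89 (5.04 to 9.19) against 4.85. They were below it in the Flo8, Nrg1, Phd1 and Smp1 libraries. In the Mit1 library the ATG genes had 0.876 (0.352 to 1.81), and the uncalled genes were low too, with 1.46. ATG1 and ATG2 are called genes: their insertions stayed in the ATG count, but their windows were left out of the library totals. Windows of uncalled genes can overlap those of called genes. Insertions in such an overlap stayed in the mean of the uncalled genes, which can raise it, but not in the library totals. By how much this moves the comparison was not tested. Gcn4 activates amino acid biosynthesis genes in starvation. Its 22 insertions lay before 13 of the 25 genes, at most 4 before 1 gene (ATG23). No ATG gene passed the test in that library. At the positions of 3 of these 22 insertions, reads were 10-fold or more higher in a different library. Leaving such insertions out lowered the Gcn4 rate from 8.99 to 7.76, while the Rgm1 rate, with 0 of them, stayed at 6.89. No interval was taken for the lowered rate, and the mean of the uncalled genes was not filtered alike. Whether the Gcn4 excess outlasts that step was therefore not tested. The intervals are not adjusted for the 28 libraries.

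**Figure D4:**
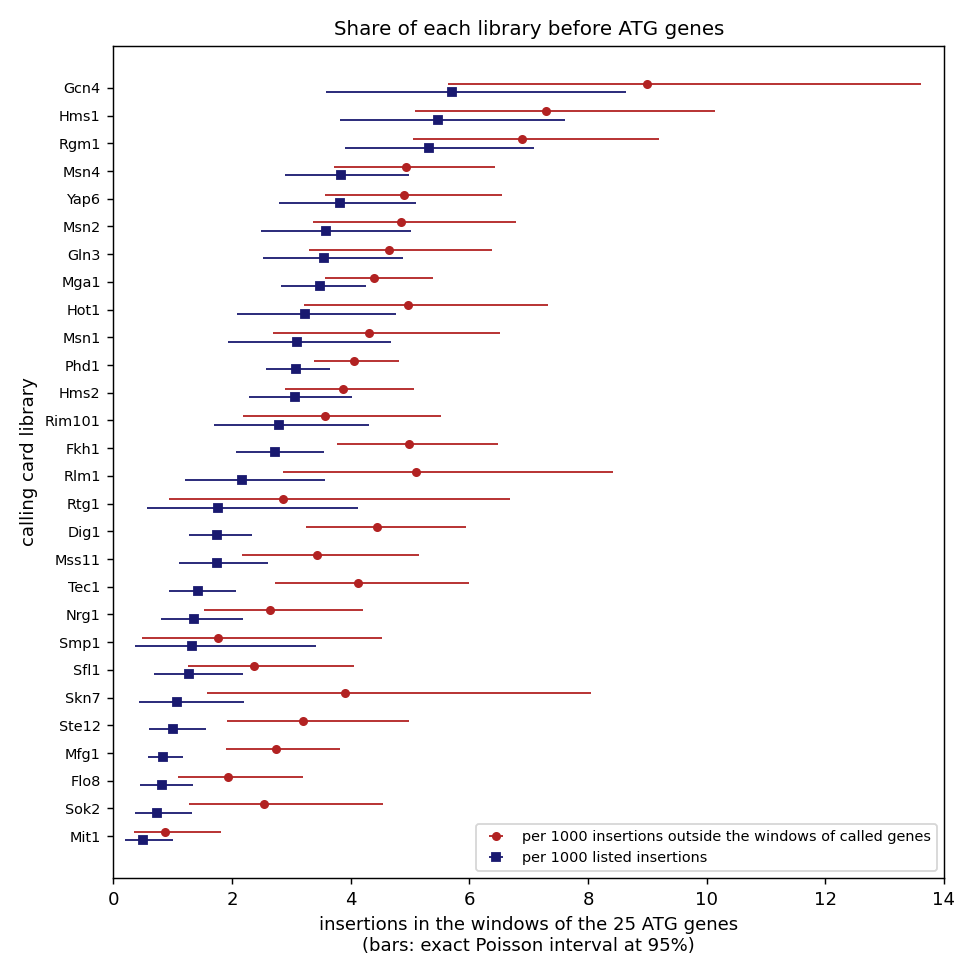
Insertions before the 25 ATG genes per 1000 insertions of each library (rows), over all listed insertions (squares) and over insertions outside the windows of called genes (circles); bars, exact Poisson intervals at 95%. The Gcn4 library is highest on both scales, at 5.70 and 8.99, and the Mit1 library lowest, at 0.491 and 0.876.

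Within the windows, insertions before ATG genes were most numerous near the start codon. The first 200 bp held 323 of the 915 (35.3%), against 25.5% for the genes called for no factor and 18.3% for all genes. That is 12.9 insertions a gene (11.5 to 14.4), against 10.6 a gene for the uncalled genes and 13.5 a gene for all genes. Between 1000 and 1200 bp the ATG genes had 1.40 insertions a gene (0.975 to 1.95), against 3.93 for the uncalled genes and 7.81 for all genes. Of all 915 insertions before ATG genes, 740 (80.9%) lay in intergenic DNA, which makes up 42.3% of the windows. Per kilobase the ATG windows had 58.3 insertions in intergenic DNA and 10.1 beyond it, and the uncalled genes had 61.1 and 17.9. The density in intergenic DNA was thus close to that of uncalled genes, and the stretches beyond it had fewer insertions in the ATG windows. The next gene began 137 to 1774 bp away, with a median of 359 bp against 396 bp over all genes. For 11 of the 25 the next gene was read in the opposite direction, so that both share the intergenic DNA. For 9 it was read in the same direction, and for 5 its direction was not resolved. Over all 6444 genes these numbers were 2886, 2654 and 904. Across the 25 genes the number of insertions went with the length of intergenic DNA in the window (Spearman's rho 0.64, against 0.40 across all genes), a description over genes that share the same 28 libraries.

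**Figure D5:**
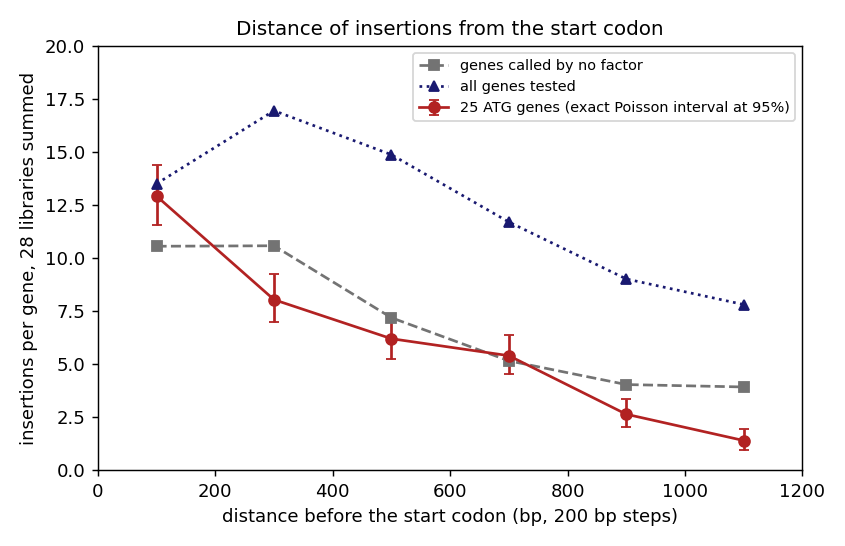
Insertions per gene, summed over 28 libraries, in 200 bp steps before the start codon for the 25 ATG genes (circles, with exact Poisson intervals at 95%), genes called for no factor (squares) and all genes tested (triangles). The ATG genes have 12.9 insertions a gene in the first step and 1.40 in the last.

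Of the 776 positions before ATG genes, 91 (11.7%) were in more than 1 library, against 19.98% of all positions, a difference that was not tested. Reads per insertion were similar, with a median of 15 before ATG genes and 14 over all insertions. The later-named ATG genes had a median of 42 insertions a window, and 4 of their 392 pairs (1.02%) passed the Fisher test, near the 0.996% of all pairs. The lowest adjusted p was that of YLR356W (ATG33) in the Gcn4 library, with 17 insertions (9.90 to 27.2) and an odds ratio of 12.6 (adjusted p = 1.28e-10, Fisher exact test). The authors' deposited table gives it a p of 4.28e-08. Most of its window lies between it and ILV5, a gene of branched-chain amino acid synthesis read in the opposite direction, so the insertions cannot be given to either gene. The same window in the Hms2 library, with 19 insertions, ICY2 (ATG41) in the Nrg1 library, with 31, and YOR152C (ATG40) in the Mga1 library, with 29, were the other 3.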

How the data were processed

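The deposited expression table gives RPKM per listed feature for 1 polyA RNA library a medium, and the sources used here do not say how the authors prepared, aligned and counted it. RNA depth is unknown, since at most 22.86% (starved) and 25.37% (rich) of low values came out as whole steps, within 0.05 of a step. Each deposited insertion listing gives a position and a whole number taken here as its read count, which the labels do not state; the authors had mapped the insertions to a genome of a build not given in the sources used here. A further deposited table of the authors, holding a p-value per gene and factor, does not state its test. Coordinates are those of the deposited files, written from 1.

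Insertions were counted as listed, without merging neighbouring positions. A pair was counted as matching if it had 0 insertions and a deposited p of 1, or had insertions and a deposited p below 1. Of the 700 ATG pairs 692 matched, beside 95.8% of all pairs. Rates are per 1000 insertions of a library. Fisher's exact test (scipy 1.17.1, Python 3.11.15) was checked on simulated Poisson counts. Such counts hold no neighbouring lines and no spread between libraries beyond counting error. The check therefore covers the computation, not the calls made here. Pseudocount, floor and thresholds stand beside the results. The ATG genes, roles and pathway lists were chosen with earlier results of these data known. Every ATG gene is named; values in full were due to changes of 2-fold, the 3 highest RPKM, called pairs and the 3 most and fewest insertions. ATG names of other features come from RefSeq. No sequences were used here.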

Additional observations from a re-analysis of the deposited data

How the results depend on the processing

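No paired analysis was possible because each group has 1 library. The count of ATG genes 2-fold higher (1) or lower (0), and the sign of the median change (0.14 to 0.26), were the same under all 6 expression alternatives tried. The Fisher calls were less stable: 3 pairs became 1 with each position counted once, 1 without positions that were 10 times richer in another library, and 0 with a 400 bp window (31 at an unadjusted p at or under 0.05). The shares of all pairs called also fell, to 0.743%, 0.870% and 0.503% under these settings. With lines of at least 2 reads, 2 ATG pairs passed (0.694% of all pairs). ATG19 in the Msn2 library was among them (adjusted p = 0.0474, Fisher's exact test). By the same exact test ATG1 in the Hms1 library (adjusted p = 0.408) and ATG2 in the Phd1 library (adjusted p = 0.186) were not. Leaving out the other library of highest rate gave 4 ATG pairs (1.34% of all pairs). The 3 pairs also became 1 with library sizes taken outside called windows (0.912% of all pairs), an alternative chosen after seeing the data. Under it ATG1 in the Hms1 library stayed past the threshold (adjusted p = 0.00614, Fisher's exact test). The 400 bp window also lowered the median insertions per ATG gene from 30 to 19, beside 30 to 17 over all genes. It left ATG1 with 0 insertions in the Hms1 library (adjusted p = 1, Fisher's exact test), since all 10 lie farther out. The deposited calls were 1 at 0.0001, 4 at 0.01 (beside 1.37% of the whole deposited table) and 1 when adjusted within each factor. Shares of the whole table at 0.0001 and after adjustment were not taken. Beyond what is stated, the cause was not tested. With 1 library a factor or medium, no value has a replicate error.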

Other observations

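For the other genes of the pathway lists, insertions were not divided between the gene and its neighbours. The counts below therefore cannot be given to the named gene alone. Among these genes, MSN4 and LAP4 held most of the deposited calls, which cover 0.879% of all pairs of the deposited table. MSN4, which encodes the stress factor Msn4, was called in the authors' deposited table for 9 factors, with 626 insertions in the Mfg1 library, 255 in the Flo8 library and 141 in the Sok2 library. For 4 of the 9 (Ste12, Tec1, Mit1 and Phd1) its rate was below that of the other libraries pooled, with odds ratios of 0.38 to 0.60. LAP4, whose product is the cargo that Atg19 carries, was called there for 5 factors, with 77 insertions in the Dig1 library, 46 in the Mfg1 library and 28 in the Ste12 library. Against the 27 other libraries, Dig1 passed Fisher's exact test for LAP4 (odds ratio 4.19, adjusted p = 3.32e-19), while Mfg1 (adjusted p = 0.625) and Ste12 (adjusted p = 0.202) did not.

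The list of TORC1 and nutrient kinases also holds genes that do not encode kinases. In it TOR2, the gene of a TOR kinase, had 12 insertions in the Sfl1 library (odds ratio 15.9, adjusted p = 9.25e-08, Fisher's exact test). RIM15, a kinase gene of nutrient limitation, had 21 insertions in the Phd1 library (odds ratio 3.30, adjusted p = 0.00381, the same exact test), and SIT4, a phosphatase gene, had 88 in the Mfg1 library (odds ratio 2.22, adjusted p = 1.62e-07). RPH1, which encodes a repressor of ATG genes, had 10 insertions in the Hms2 library (odds ratio 5.95, adjusted p = 0.00477, the same exact test). Apart from MSN4, these 4 were the pairs of the kinase and regulator lists that both tests called, so the match follows from the choice. Of the 448 pairs of TORC1 and nutrient kinases, 7 passed the Fisher test and 3 were called in the authors' deposited table. KOG1 (Phd1 library), TAP42 (Msn4), NPR1 (Hms2), GTR2 (Msn1), UME6 (Hot1) and GZF3 (Msn4) passed the Fisher test only, as did DAP2 (Mga1). No pair of the lipid kinase partners (112 pairs) or of vacuole fusion (336 pairs) was called by either test. Over all pairs the shares were 0.996% by the Fisher test and 0.879% in the deposited table. With so few pairs, a count of 0 says little about these genes.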
